A study of Mus musculus with 12 samples.

Results

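Muscle progenitors recovered from transplanted muscle were compared with muscle progenitors of midgestation mouse embryos. The comparison uses 6 of the 12 RNA libraries of the study, 3 per group, and 12699 of the 23284 genes of its expression table. The libraries were taken by their labels, and the genes by a rule on level, at least 1 FPKM in at least 3 of the 12 libraries. FPKM counts sequenced fragments relative to the length of the transcript and to the mapped fragments of the library, so levels of genes of different length can be compared. The transplant group holds α7-integrin+ VCAM+ cells sorted from tibialis anterior muscle, a muscle of the lower leg, 1 month after teratoma-derived cells of the same surface phenotype had been transplanted into it. Teratomas are mixed tumours that pluripotent stem cells form, and the source of the transplant libraries is given as pluripotent stem cell derivatives, with no age. The embryo group holds α7-integrin+ VCAM+ cells sorted from whole embryos at E14.5, in midgestation. The remaining 6 libraries, which enter the estimate of the spread and are given beside some genes, hold cells of that phenotype from teratomas 3 weeks old (teratoma cells) and from the hindlimbs of male mice 8 weeks old (adult hindlimb cells). All libraries carry the strain label 129P2/OlaHsd, all cells were also negative for the endothelial antigen CD31 and the leukocyte antigen CD45, and all tissue was digested with collagenase and dispase. The labels name no host mouse and do not tell host cells in the leg muscle from transplanted ones. The embryo cells came from every body region and the transplant cells from 1 muscle, so stage, body site, cell origin and transplantation cannot be told apart in this comparison. The design text calls the libraries biological replicates with no animal named, and the p-values then reflect only how far these libraries spread.

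Skeletal muscle progenitors are the cells that build and repair muscle fibres. The transcription factor Pax7 marks them from fetal life onward, Myf5 and Myod1 commit them to muscle, and myogenin starts their terminal differentiation and fusion into fibres. In the embryo these cells divide and add fibres, while in grown muscle most of them rest as satellite cells between the fibre and its basement membrane. Short promoter motifs are known for several of the gene groups described here. Metallothionein genes carry metal response elements, which the zinc-sensing factor Mtf1 binds. Genes of DNA replication carry E2F sites, mitotic genes carry the cell cycle homology region, and interferon-induced genes carry interferon response elements.

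The promoters of 4 genes that differed between transplant and embryo cells are shown because each stands for 1 of these gene groups. They are the 250 bases before the annotated start of transcription, 5′ to 3′ in the direction of the gene, from RefSeq on GRCm38.p6. Capitals mark every match to the group's motif on either strand, and overlapping matches run together.
Mt2, metal response element core TGCNCNC, chr8:94172368-94172617, plus strand: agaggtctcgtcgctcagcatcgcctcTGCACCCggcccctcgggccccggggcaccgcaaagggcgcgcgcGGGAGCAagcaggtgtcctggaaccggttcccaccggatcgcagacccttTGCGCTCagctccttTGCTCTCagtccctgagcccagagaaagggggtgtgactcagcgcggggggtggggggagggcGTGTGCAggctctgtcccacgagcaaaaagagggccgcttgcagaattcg
Mcm6, E2F site TTTNGCGC, chr1:128359706-128359955, minus strand: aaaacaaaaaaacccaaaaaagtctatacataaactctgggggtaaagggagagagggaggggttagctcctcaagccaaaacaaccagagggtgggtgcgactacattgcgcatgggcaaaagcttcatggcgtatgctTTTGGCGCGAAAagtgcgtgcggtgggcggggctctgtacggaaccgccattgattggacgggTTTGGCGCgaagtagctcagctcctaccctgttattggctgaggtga
Cdk1, cell cycle homology region TTTGAA, chr10:69352913-69353162, minus strand: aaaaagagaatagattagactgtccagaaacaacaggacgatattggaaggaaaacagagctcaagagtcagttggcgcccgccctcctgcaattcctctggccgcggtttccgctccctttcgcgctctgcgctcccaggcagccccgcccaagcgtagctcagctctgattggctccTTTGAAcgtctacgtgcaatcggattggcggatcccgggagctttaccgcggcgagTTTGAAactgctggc
Isg15, interferon response element (GAAA, any 2 bases, GAAA), chr4:156200819-156201068, minus strand: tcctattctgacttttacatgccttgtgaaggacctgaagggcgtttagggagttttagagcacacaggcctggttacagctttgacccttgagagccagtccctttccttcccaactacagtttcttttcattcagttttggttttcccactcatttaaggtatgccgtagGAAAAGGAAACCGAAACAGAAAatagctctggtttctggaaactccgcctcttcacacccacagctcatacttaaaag
The Mt2 window held 3 matches to TGCNCNC on the strand shown and 2 on the other strand. These letters allow any base at each N, so a match need not be a metal response element. The Mcm6 window held 3 matches, of which 2 overlapped on opposite strands. The Cdk1 window held 2 matches and the Isg15 window 3 overlapping ones, all on the strand shown. In the 250 bases shown, the E2F site was present in 17.6% of the 34 promoters found for S phase genes and in 1.13% of all 32851 promoters. With the 50 bases after the start added to every window these shares were 29.4% and 1.38%. The cell cycle homology region was present in 34.4% of 32 promoters of G2 and M phase genes and in 16% of all promoters, or in 78.1% and 17.9% with the added bases. The interferon element was present in 35.3% of 34 promoters of the interferon response list and in 2.98% of all promoters, or in 38.2% and 3.44% with the added bases. The metal response core as written here is short and loose. It was present in 60% of 10 promoters of the metallothionein and zinc list and in 44.4% of all promoters, or in 80% and 51% with the added bases. These shares describe letters in a window and show no binding.

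Levels were compared on log2(FPKM + 1). The spread was estimated over all 4 groups of the study with limma, a linear model that pools the spread of many genes, and p-values had a Benjamini-Hochberg adjustment across the 12699 genes. A log2 change on this scale is transplant minus embryo, is given with its standard error (SE), and understates the change of low genes. Each group has 3 libraries, and calls were made where the adjusted p was under 0.05. By this test 42.5% of the tested genes were called, 1889 (14.9%) higher and 3505 (27.6%) lower in transplant cells, with a median change of -0.24 over the tested genes. The 2 groups of libraries did not overlap for 50.3% of the genes. After median-ratio scaling, which sets the typical gene equal between libraries, 2549 genes were higher and 2422 lower with a median of 0.00, so the split between higher and lower calls depends on the scale. Changes below are to be read against that shift of 0.24. Counts of calls in a list are to be read against the 14.9% higher and 27.6% lower of all tested genes. Small and ribosomal RNA took 59.4% to 70.9% of the FPKM of the transplant libraries and 39.2% to 97.6% of that of the embryo libraries. Embryo replicate 2 stood apart, with 74 genes listed at 0 that both other embryo libraries had at 5 FPKM or more, against 6 to 27 such genes in every other library of the study. Without it 1696 genes were higher and 3371 lower, with a median change of -0.29. Embryo replicate 3 was the library with 97.6% small and ribosomal RNA. Leaving out embryo replicate 3 gave 1914 higher and 2900 lower genes, with a median change of -0.15. Transplant libraries correlated at a mean of 0.917 with each other, embryo libraries at 0.882, and libraries of different groups at 0.706.

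Both antigens used for the positive sort, and the regulators Pax7, Myf5, Myod1 and Myog, were higher in transplant cells, while the longer list of myogenic regulators was mixed. The calls of Vcam1 and Myog did not hold under every alternative. Itga7, the α7-integrin of the sort and a laminin receptor of muscle, had 34.9, 39.0 and 55.5 FPKM in transplant cells, against 10.6, 9.73 and 10.8 FPKM in embryo cells (log2 change 1.93 ± 0.17, adjusted p = 4.12e-06). Vcam1, the second sorted antigen, had 68.7, 91.6 and 87.7 FPKM in transplant cells and 48.8, 57.7 and 52.4 FPKM in embryo cells (0.63 ± 0.21, adjusted p = 0.0315). The groups did not overlap for Vcam1, which held for 50.3% of all tested genes. The Vcam1 call was lost without embryo replicate 1 (adjusted p = 0.0848) or 3 (0.0687), or without transplant replicate 2 (0.101) or 3 (0.0886). Pecam1, which encodes CD31, was low in both groups and did not pass the test, with 2.10, 2.36 and 1.42 FPKM in transplant cells and 0.638, 8.31 and 2.10 FPKM in embryo cells. Ptprc, which encodes CD45, was at 0.308 FPKM or less in all 6 libraries. In bulk RNA of sorted cells, more cells of a type and more RNA per cell cannot be told apart, here or in any result below.

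Pax7, which lies at chr4:139737062-139833528 (mm10), had 39.8, 32.3 and 54.8 FPKM in transplant cells, against 14.7, 14.3 and 13.1 FPKM in embryo cells (1.49 ± 0.19, adjusted p = 7.2e-05). Myf5 had 53.3, 52.6 and 68.1 FPKM in transplant cells, against 12.9, 10.04 and 15.02 FPKM in embryo cells (2.12 ± 0.21, adjusted p = 8.6e-06). Myod1 had 29.8, 39.1 and 56.1 FPKM in transplant cells, against 23.6, 19.8 and 11.2 FPKM in embryo cells (1.17 ± 0.29, adjusted p = 0.00658). The 3 genes separated the groups with no overlap, as did 50.3% of all tested genes. Myog, which encodes myogenin, had 42.9, 32.6 and 46.6 FPKM in transplant cells and 19.4, 33.2 and 10.1 FPKM in embryo cells, with embryo replicate 2 inside the transplant range (1.06 ± 0.38, adjusted p = 0.0416). Its call was lost without embryo replicate 1 (adjusted p = 0.0759) or 3 (change 0.64, adjusted p = 0.167), and without transplant replicate 1 (0.0998) or 3 (0.114). The Myog call was also lost with a pseudocount of 0.1 (0.0566), with no filter on low values (0.0714) and with only the 2 groups compared (0.0827). Myf6, the muscle regulator of later differentiation, was at 1.43, 0 and 1.45 FPKM in transplant cells and listed at 0 in the 3 embryo libraries. It did not pass the test (adjusted p = 0.157), except without transplant replicate 2 (0.0469). Pax3, which acts before Pax7 in the embryo, was the reverse of Pax7, at 0.305, 0.0880 and 0.115 FPKM in transplant cells, against 1.24, 2.81 and 1.07 FPKM in embryo cells (-1.16 ± 0.29, adjusted p = 0.00671).

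Nfix, the nuclear factor that drives the switch to fetal myogenesis, had 94.2, 79.6 and 97.7 FPKM in transplant cells, against 33.9, 27.9 and 25.5 FPKM in embryo cells (1.61 ± 0.15, adjusted p = 6.03e-06). Its relative Nfic was also higher (1.45 ± 0.18, adjusted p = 4.71e-05). Nfia did not pass the test, at 25.8, 22.5 and 26.7 FPKM in transplant cells and 23.1, 26.5 and 26.3 FPKM in embryo cells (-0.02 ± 0.14, adjusted p = 0.927), and its sign turned with the scaling. Heyl, a Notch target of satellite cells, had 75.7, 56.7 and 81.2 FPKM in transplant cells, against 16.8, 17.0 and 19.2 FPKM in embryo cells (1.94 ± 0.18, adjusted p = 7.01e-06). Tcf12, a partner of the muscle regulators, fell to 17.2, 19.9 and 16.9 FPKM in transplant cells, against 34.4, 47.7 and 42.1 FPKM in embryo cells (-1.15 ± 0.22, adjusted p = 0.00113). Of the 23 myogenic regulators listed, 8 (34.8%) were higher, 5 (21.7%) lower and 10 not called, beside 14.9% higher and 27.6% lower among all genes. Their median change was 0.17 beside -0.24 for all genes. That median was -0.02 without embryo replicate 1, and the lower calls numbered 3 without embryo replicate 2 or 3 or transplant replicate 2 or 3, 2 under median-ratio and 3 under quantile scaling. The plot of regulator levels shows the same genes beside teratoma cells before transplantation and adult hindlimb cells.

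**Figure D1:**
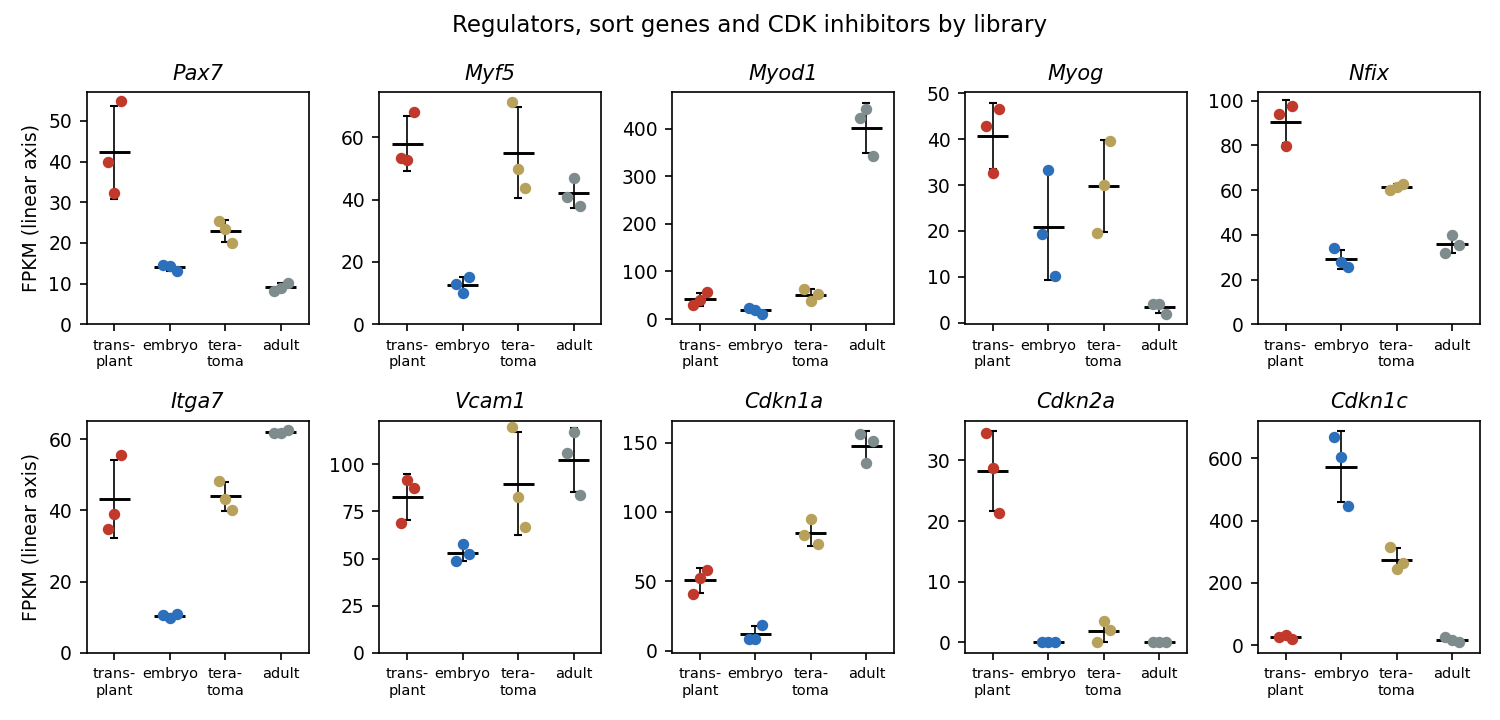
FPKM of 10 regulator, sort and cell cycle inhibitor genes in every library (points) with the mean and SD of 3 libraries per group (bars), in transplant, embryo, teratoma and adult groups. Pax7 ran from 32.3 to 54.8 FPKM in transplant cells and from 13.1 to 14.7 FPKM in embryo cells, while Cdkn1c ran from 19.9 to 33.3 FPKM in transplant cells and from 446 to 668 FPKM in embryo cells.

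The genes with the largest changes included 2 metallothioneins and several matrix proteins on the higher side, and 3 imprinted genes and 5 globins on the lower side. They were taken by size of change among called genes whose groups did not overlap and whose higher group averaged at least 5 FPKM, so the choice itself fixed that their groups are apart. Mt1, a metallothionein that binds zinc and copper, had 1015, 936 and 1096 FPKM in transplant cells, against 11.2, 0 and 2.50 FPKM in embryo cells (8.18 ± 0.63, adjusted p = 1.55e-06). Mt2, its neighbour on chromosome 8, had 797, 709 and 862 FPKM in transplant cells, against 1.55, 4.58 and 3.00 FPKM in embryo cells (7.68 ± 0.27, adjusted p = 8.21e-09). Both genes were far above the embryo range in every transplant library. Cilp, a matrix protein of cartilage and tendon, had 359, 300.2 and 182 FPKM in transplant cells, against 0.535, 2.13 and 0.0811 FPKM in embryo cells. Mgp, the matrix Gla protein that inhibits calcification, had 2012, 1764 and 1245 FPKM in transplant cells, against 62.5, 11.1 and 46.7 FPKM in embryo cells. Asb5, an ankyrin repeat protein, had 44.6, 84.7 and 80.2 FPKM in transplant cells, against 0, 0.142 and 0 FPKM in embryo cells. Cilp, Mgp and Asb5 rose by 7.29 ± 0.41, 5.63 ± 0.47 and 6.03 ± 0.23 on the log2 scale. Nupr1, a stress-induced nuclear protein (6.38 ± 0.45), Igfbp7 (5.95 ± 0.82), the matrix proteoglycan Prelp (5.87 ± 0.50), thrombospondin 4 or Thbs4 (5.81 ± 0.36) and the extracellular superoxide dismutase Sod3 (5.69 ± 0.53) complete the 10. Embryo replicate 2 was listed at 0 for Mt1, Nupr1 and Igfbp7, and the higher calls of all 10 genes held without it.

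On the lower side H19, an imprinted noncoding RNA at chr7:142575529-142578143 that is abundant in fetal muscle, had 0.986, 1.09 and 1.44 FPKM in transplant cells, against 1478, 1293 and 1628 FPKM in embryo cells (-9.40 ± 0.14, adjusted p = 1.22e-12). Grb10, an imprinted adaptor that restrains insulin and IGF receptor signalling, had 0.234, 0.502 and 0.569 FPKM in transplant cells, against 196, 195 and 214 FPKM in embryo cells (-7.15 ± 0.17, adjusted p = 1.25e-10). Dlk1, an imprinted membrane protein of fetal tissues, had 10.5, 3.49 and 5.44 FPKM in transplant cells, against 304, 238 and 312 FPKM in embryo cells (-5.36 ± 0.32, adjusted p = 3.2e-07). Dlk1 and Grb10 varied among the transplant libraries, but for the 3 imprinted genes this spread was small beside the difference between groups. For H19 and Grb10 the teratoma cells averaged 14.7 and 1.08 FPKM and adult hindlimb cells 6.37 and 42.8 FPKM. Crabp1, a retinoic acid-binding protein, had 0.218, 1.57 and 0.688 FPKM in transplant cells, against 76.7, 74.2 and 91.7 FPKM in embryo cells. Kcne1l, an accessory subunit of potassium channels, had 0.896, 0 and 0.151 FPKM in transplant cells, against 47.4, 47.8 and 45.8 FPKM in embryo cells. Both were lower, with log2 changes of -5.55 ± 0.62 and -5.21 ± 0.41. The other 5 genes were globins of red blood cells, Hbb-y, Hba-x, Beta-s (the adult β-globin now named Hbb-bs), Hba-a2 and Hbb-b2. Hbb-y, the embryonic β-like globin, had 0.486, 0.495 and 0 FPKM in transplant cells, against 116, 465 and 1188 FPKM in embryo cells. The globins varied widely among the embryo libraries, and near-identical copies can share reads.

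**Figure D2:**
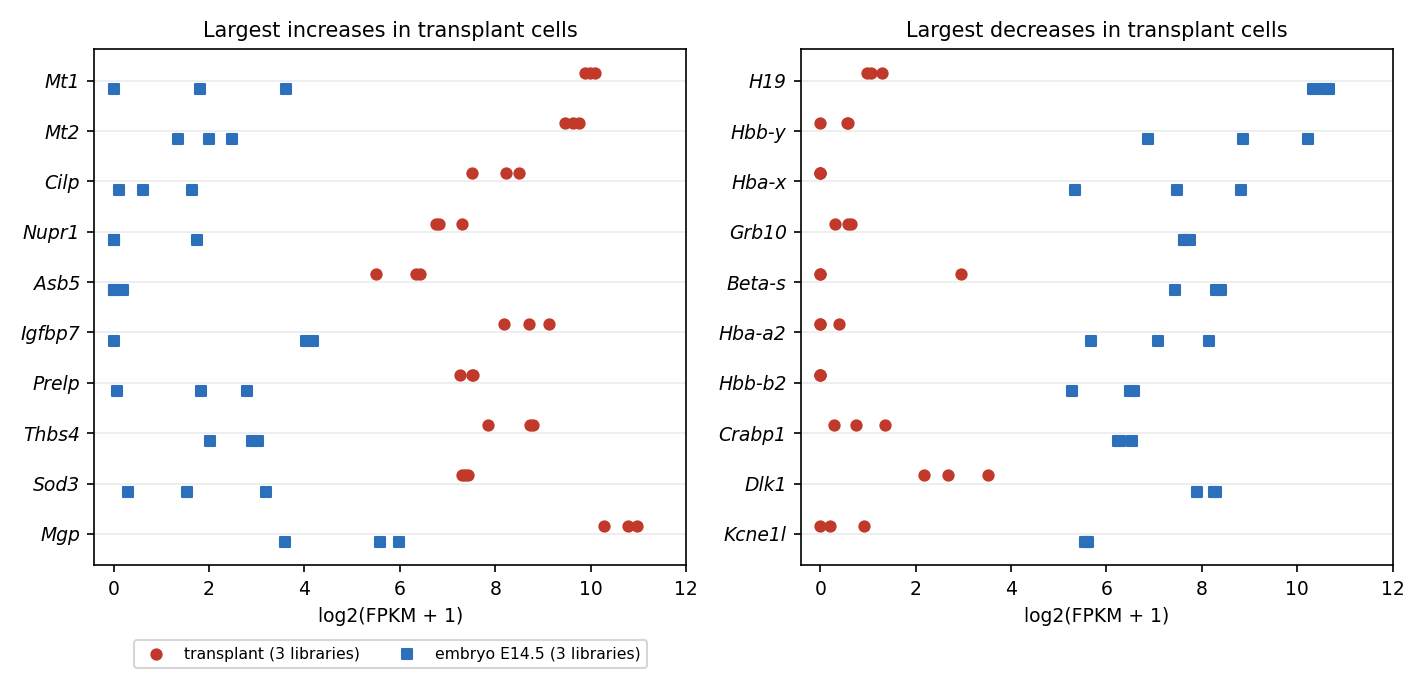
Level on log2(FPKM + 1) of the genes of largest change, 10 higher and 10 lower, 1 point per library, transplant and embryo libraries in different colours. The log2 changes run from Mt1 (8.18) to Mgp (5.63) among the higher genes and from H19 (-9.40) to Kcne1l (-5.21) among the lower ones, and the choice of genes fixed that the groups do not overlap.

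Genes known for quiescent satellite cells were mostly higher in transplant cells. Of 45 tested members of this list, 34 were higher and 3 lower, with a median change of 1.34 beside -0.24 for all genes. Without embryo replicate 2 the counts were 33 higher and 4 lower. Dio2, the deiodinase that activates thyroid hormone, had 29.7, 32.9 and 33.1 FPKM in transplant cells, against 0.248, 0.116 and 0 FPKM in embryo cells (4.88 ± 0.20, adjusted p = 2.48e-08). Col5a3, a chain of collagen V, had 75.1, 70.1 and 78.9 FPKM in transplant cells, against 3.42, 1.31 and 2.63 FPKM in embryo cells (4.50 ± 0.24, adjusted p = 1.39e-07). Dio2 and Col5a3 were nearly constant across transplant libraries. The secreted peroxidase Gpx3 (4.59 ± 0.36) and the BMP ligand Bmp6 (4.54 ± 0.32) rose by similar amounts. Of the 3 lower members, Cdkn1c, an inhibitor of cell division, and the zinc finger gene Peg3 are imprinted. Peg3 had 30.6, 26.2 and 46.1 FPKM in transplant cells, against 141, 134 and 169 FPKM in embryo cells (-2.11 ± 0.20, adjusted p = 6.26e-06).

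Genes of fusion and differentiation, the steps that follow the progenitor stage, were also mostly higher. Of 26 tested members 16 were higher and 2 lower, with a median change of 1.27. Mymk, the muscle fusogen myomaker, listed as Tmem8c, had 9.13, 8.89 and 12.9 FPKM in transplant cells, against 0.620, 0 and 2.79 FPKM in embryo cells (2.61 ± 0.53, adjusted p = 0.00189). Mymx, its partner myomixer, listed as Gm7325, had 5.16, 6.69 and 2.07 FPKM in transplant cells and was listed at 0 in the 3 embryo libraries (2.39 ± 0.31, adjusted p = 7.57e-05). Des, the muscle intermediate filament desmin, had 81.4, 84.0 and 114 FPKM in transplant cells, against 16.9, 25.5 and 10.98 FPKM in embryo cells (2.38 ± 0.25, adjusted p = 1.4e-05). For both fusion genes and Des the groups did not overlap, which held for 50.3% of all tested genes.

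Among 38 sarcomere isoforms, 29 passed the filter, 14 were higher, 5 lower and 10 not called, with a median change of 0.92. With no filter on low values the median of the 38 was 0.45. The striated muscle actins moved in opposite directions. Acta1, the actin of grown skeletal muscle, had 40.5, 45.7 and 46.9 FPKM in transplant cells, against 0.478, 0.365 and 1.09 FPKM in embryo cells (4.81 ± 0.46, adjusted p = 7.37e-06). Actc1, the actin of heart and embryonic muscle, had 11.9, 13.7 and 21.3 FPKM in transplant cells, against 98.9, 132 and 77.4 FPKM in embryo cells (-2.65 ± 0.31, adjusted p = 3.5e-05). Acta1 was above Actc1 in every transplant library and below it in every embryo library. Adult satellite cells averaged 6.47 FPKM of Acta1.

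Several genes of fast fibres were among the higher ones. The fast regulatory light chain Mylpf had 13.8, 14.1 and 16.7 FPKM in transplant cells, against 1.47, 0.122 and 2.10 FPKM in embryo cells (2.95 ± 0.40, adjusted p = 0.000103). The fast troponins Tnnc2 (2.81 ± 0.48) and Tnnt3 (2.10 ± 0.28), the fast Z-disc protein Actn3 (2.45 ± 0.35), the essential light chain Myl1 (2.02 ± 0.38) and the calcium buffer of fast fibres Pvalb (1.56 ± 0.41) were higher as well. Muscle creatine kinase, Ckm, had 2.54, 5.66 and 4.78 FPKM in transplant cells and was listed at 0 in the 3 embryo libraries (2.36 ± 0.43, adjusted p = 0.000835). The fast myosin heavy chain Myh1 had only 1.34, 1.59 and 1.93 FPKM in transplant cells, against 0.0530, 0.0208 and 0.112 FPKM in embryo cells (1.30 ± 0.22, adjusted p = 0.000549). Titin (Ttn, 1.69 ± 0.23), Myom2 (1.02 ± 0.22), Mybpc1 (0.96 ± 0.24), the embryonic light chain Myl4 (1.10 ± 0.37) and slow Tnni1 (0.92 ± 0.29) complete the 14. Myh3, the embryonic myosin heavy chain, did not separate the groups, with 0.334, 0.487 and 1.10 FPKM in transplant cells and 0.311, 0.605 and 0.670 FPKM in embryo cells (0.08 ± 0.27, adjusted p = 0.837). Myh8, the perinatal chain, had 0.912, 0.518 and 1.55 FPKM in transplant cells, against 3.55, 5.47 and 1.63 FPKM in embryo cells (-1.13 ± 0.37, adjusted p = 0.0286). Tropomyosins Tpm1 (-1.71 ± 0.21) and Tpm2 (-0.98 ± 0.21) and slow troponin Tnnc1 (-1.46 ± 0.43) were the other lower members.

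Some of these calls rest on single libraries. Myh8 lost its call without embryo replicate 1 or 2 or transplant replicate 1 or 2 (adjusted p up to 0.102), and under median-ratio scaling (0.0792). Tnnc1 lost it without embryo replicate 2 (0.0618) or transplant replicate 1 (0.0716). Myl4 lost it without embryo replicate 1 or 2 or transplant replicate 1 or 3 (up to 0.107), and Tnni1 without any one library other than embryo replicate 3 (up to 0.0852). The list then had 3 lower calls without embryo replicate 2 or transplant replicate 1, and also under quantile scaling. Uncalled members were Tpm3 (-0.31), Tnnt1 (-0.28), Myom1 (0.12), Actn2 (0.42), Neb (0.46), Tnni3 (0.50), Tnnt2 (0.55), Mybph (0.58) and Tnni2 (0.92, adjusted p = 0.0563) beside Myh3. Tnni2 was called higher under median-ratio (0.0335) and quantile (0.0302) scaling and with only the 2 groups compared (0.0284). The remaining 9, Myh2, Myh4, Myh6, Myh7, Myl2, Myl3, Myl7, Mybpc2 and Myom3, were too low to be tested, and none passed 1.96 FPKM in the 6 libraries.

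**Figure D3:**
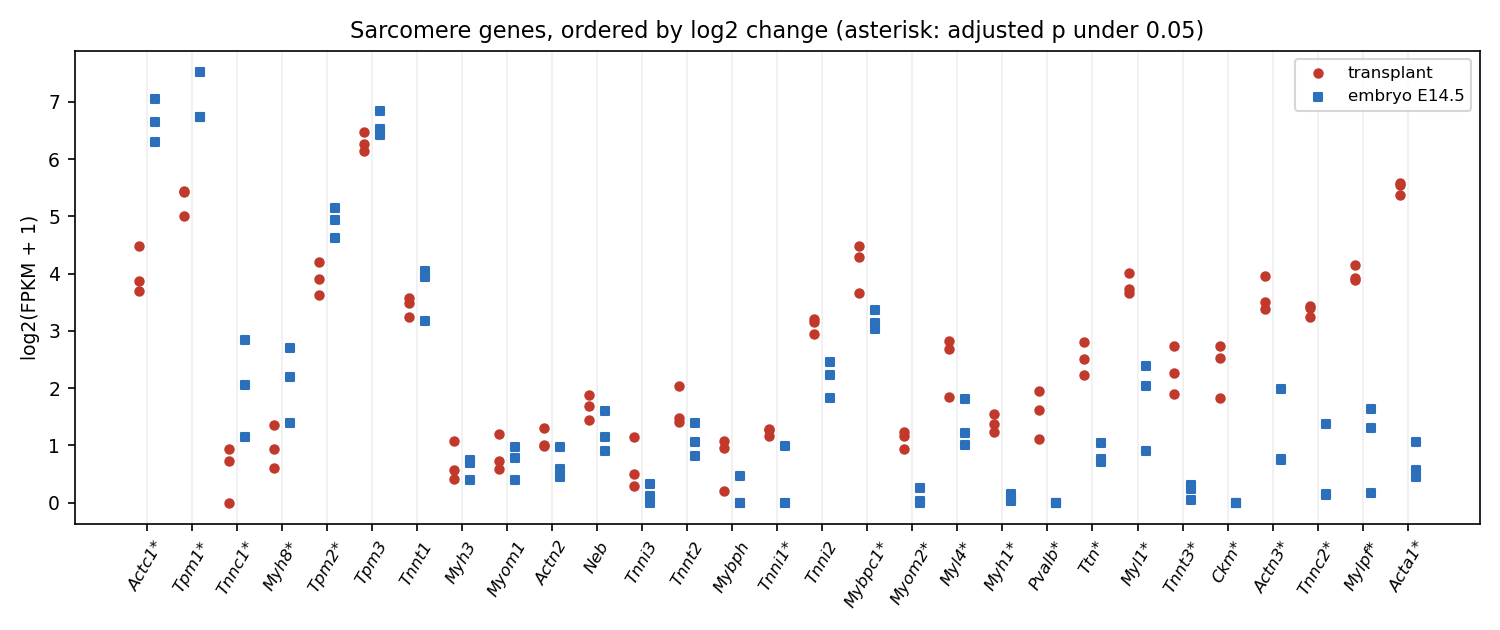
Level on log2(FPKM + 1) of the 29 tested sarcomere isoforms, 1 point per library (circles for transplant, squares for embryo), ordered by log2 change with asterisks on called genes. Actc1 (-2.65) and Tpm1 (-1.71) are at the left end with the embryo libraries above, Mylpf (2.95) and Acta1 (4.81) at the right end with the transplant libraries above, and Myh3 (0.08) lies where they overlap.

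Genes of the muscle side of the neuromuscular junction were mixed. Of 13 tested members 6 (46.2%) were higher, 3 (23.1%) lower and 4 not called, beside 14.9% higher and 27.6% lower among all genes. The median change was 0.72, but 0.44 without embryo replicate 2, 0.24 with no filter on low values and 1.76 with a mean of at least 5 FPKM. Musk, the receptor kinase that organises the synapse, had 6.05, 10.1 and 13.9 FPKM in transplant cells, against 0.814, 0 and 0 FPKM in embryo cells (3.11 ± 0.30, adjusted p = 8.33e-06). Chrna1, the α subunit of the muscle acetylcholine receptor, had 12.7, 22.1 and 14.3 FPKM in transplant cells, against 1.76, 1.86 and 0.888 FPKM in embryo cells (2.78 ± 0.27, adjusted p = 8.79e-06). The receptor's β subunit Chrnb1 (2.54 ± 0.20) and its anchoring protein Rapsn (3.06 ± 0.46) were higher too. Agrn, the nerve-derived organiser agrin, had 20.2, 19.5 and 18.2 FPKM in transplant cells, against 33.5, 38.3 and 70.2 FPKM in embryo cells (-1.18 ± 0.23, adjusted p = 0.00161). The agrin receptor Lrp4 (-1.23 ± 0.28) and the neuregulin receptor Erbb3 (-2.21 ± 0.35), which Schwann cells also use, fell as well.

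Genes of cell division were lower in transplant cells. The S phase list (32 genes) and the G2 and M phase list (34 genes) were tested in full, and all members were called, with median changes of -3.00 and -3.30 beside 27.6% lower calls among all genes. The counts were the same without embryo replicate 2, and under median-ratio scaling 31 and 34 were lower. Mcm6, a subunit of the replicative helicase whose promoter is shown above, had 2.05, 1.93 and 2.47 FPKM in transplant cells, against 57.4, 54.9 and 43.6 FPKM in embryo cells (-4.07 ± 0.27, adjusted p = 5.31e-07). Rrm2, the regulated subunit of ribonucleotide reductase, had 1.23, 1.35 and 5.67 FPKM in transplant cells, against 57.2, 58.7 and 48.2 FPKM in embryo cells (-4.09 ± 0.38, adjusted p = 5.7e-06). Transplant replicate 3 was thus the highest of its group, though far below the embryo libraries. Mcm5 (-4.29 ± 0.34), thymidine kinase Tk1 (-4.09 ± 0.27) and Uhrf1 (-4.36 ± 0.26), which brings DNA methylation to new strands, had like changes.

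Cdk1, the kinase that starts mitosis, had 1.88, 0.828 and 0.745 FPKM in transplant cells, against 34.0, 42.5 and 36.6 FPKM in embryo cells (-4.20 ± 0.25, adjusted p = 2.63e-07). Top2a, the topoisomerase of dividing cells, had 1.78, 2.08 and 3.22 FPKM in transplant cells, against 60.8, 77.3 and 80.7 FPKM in embryo cells (-4.47 ± 0.29, adjusted p = 4.65e-07). Birc5, or survivin, of the chromosomal passenger complex, had 1.71, 0.827 and 0.806 FPKM in transplant cells, against 47.5, 65.6 and 50.9 FPKM in embryo cells (-4.73 ± 0.23, adjusted p = 7.29e-08). Low but measurable levels remained in every transplant library. Cyclin A2 (Ccna2, -4.36 ± 0.33) and the mitotic ubiquitin enzyme Ube2c (-4.58 ± 0.38) moved alike. Replication histones, which are made only while DNA is copied, were lower for 50 of 55 tested genes and higher for none, with a median of -3.57. The linker histone Hist1h1a had 0.659, 0.330 and 4.79 FPKM in transplant cells, against 226, 258 and 141 FPKM in embryo cells (-6.44 ± 0.45, adjusted p = 9.25e-07). Hist1h2ak fell by a similar amount (-6.12 ± 0.53), although near-identical histone copies can share reads.

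The 7 CDK inhibitors, which hold cyclin-dependent kinases inactive, did not move as 1 group. Cdkn2a, the locus of p16 and p19ARF at chr4:89274471-89294653, had 34.6, 28.7 and 21.4 FPKM in transplant cells and was listed at 0 in the 3 embryo libraries (4.85 ± 0.44, adjusted p = 4.94e-06). Its neighbour Cdkn2b, at chr4:89306299-89311039, had 14.4, 14.9 and 7.04 FPKM in transplant cells, against 0.376, 0 and 0 FPKM in embryo cells (3.49 ± 0.31, adjusted p = 4.25e-06). Cdkn2a was also listed at 0 in the 3 libraries of adult hindlimb cells and averaged 1.85 FPKM in teratoma cells. Cdkn1a, or p21, had 40.9, 52.6 and 58.5 FPKM in transplant cells, against 8.51, 8.49 and 18.4 FPKM in embryo cells (2.08 ± 0.25, adjusted p = 4.28e-05), and adult hindlimb cells averaged 148 FPKM. Cdkn1b, or p27, had 23.3, 24.5 and 16.8 FPKM in transplant cells and 9.27, 4.33 and 16.7 FPKM in embryo cells (1.17 ± 0.34, adjusted p = 0.0144). The groups barely parted, the call was lost without transplant replicate 2 (adjusted p = 0.0505), and the change was 0.72 without embryo replicate 2. Cdkn1c, or p57, the imprinted member at chr7:143458339-143461050, went the other way, with 26.9, 33.3 and 19.9 FPKM in transplant cells, against 668, 604 and 446 FPKM in embryo cells (-4.38 ± 0.30, adjusted p = 7.57e-07). In every embryo library it was more abundant than the other 6 together. Cdkn2d (0.29 ± 0.49, adjusted p = 0.659) and Cdkn2c (-0.39 ± 0.77, adjusted p = 0.721) did not pass the test.

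In the IGF axis, the growth factor system of fetal muscle, ligand, receptors and binding proteins moved differently. Igf2, the fetal ligand, stayed abundant, with 749, 735 and 1110.3 FPKM in transplant cells, against 1150.4, 1415 and 1323 FPKM in embryo cells (-0.60 ± 0.19, adjusted p = 0.0217), while adult hindlimb cells averaged 45.4 FPKM. Its call was lost under median-ratio scaling (change -0.28, adjusted p = 0.266), without embryo replicate 2 (0.0578) or 3 (0.0536), and without transplant replicate 1 (0.0806) or 2 (0.0855). H19, which neighbours Igf2 on chromosome 7 and shares its imprinting control, parted the same libraries far more widely, as given above. Igf1, the postnatal ligand, did not pass the test (-0.52 ± 0.25, adjusted p = 0.110). Igf2r, which clears Igf2, had 53.2, 47.9 and 48.6 FPKM in transplant cells, against 93.6, 102 and 124 FPKM in embryo cells (-1.07 ± 0.15, adjusted p = 0.000123). The signalling receptor Igf1r fell similarly (-0.98 ± 0.17), and the insulin receptor Insr did not pass the test (-0.02 ± 0.26, adjusted p = 0.964).

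Of the binding proteins, which hold IGFs outside the cell, 4 were higher. Igfbp6, which prefers Igf2, had 95.6, 116 and 73.0 FPKM in transplant cells, against 2.87, 4.74 and 0.293 FPKM in embryo cells (4.94 ± 0.47, adjusted p = 6.93e-06). Igfbp5 had 424, 409 and 471 FPKM in transplant cells, against 122, 139.6 and 175 FPKM in embryo cells (1.58 ± 0.18, adjusted p = 2.23e-05). Igfbp4 (0.92 ± 0.20) and the more distant Igfbp7 (5.95 ± 0.82) were the others. Igfbp2 alone fell, to 8.65, 8.53 and 7.12 FPKM in transplant cells, against 31.7, 32.8 and 47.9 FPKM in embryo cells (-2.06 ± 0.26, adjusted p = 6.76e-05), and Igfbp3 did not pass the test (0.36 ± 0.20, adjusted p = 0.167) except under median-ratio scaling (0.0172). The adaptor Irs2 was higher (0.72 ± 0.18, adjusted p = 0.00552) and Irs1 lower (-0.66 ± 0.20, adjusted p = 0.0187). The call of Irs1 was lost under median-ratio scaling (0.128), without embryo replicate 3 (0.0589) and without transplant replicate 2 (0.0547) or 3 (0.0599). With H19 and Grb10, 5 of 15 tested members were higher and 7 lower, with a median change of -0.52. Igfbp1 was not tested.

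Imprinted genes outside the IGF axis were mostly lower. Of 31 tested members 20 were lower and 3 higher, with a median change of -1.46, and without embryo replicate 2 the counts were 19 and 3. With no filter on low values 21 of 35 were lower and 3 higher, with a median of -1.05. Mest had 23.8, 23.6 and 8.49 FPKM in transplant cells, against 476, 407 and 571 FPKM in embryo cells (-4.74 ± 0.34, adjusted p = 1.11e-06). Plagl1, a zinc finger factor that regulates other imprinted genes, had 5.97, 4.70 and 2.74 FPKM in transplant cells, against 150.2, 119 and 118 FPKM in embryo cells (-4.61 ± 0.24, adjusted p = 1.29e-07). Nnat had 1.82, 1.71 and 1.63 FPKM in transplant cells, against 58.7, 55.7 and 79.0 FPKM in embryo cells (-4.57 ± 0.32, adjusted p = 9.43e-07). Together with Dlk1 and Cdkn1c these had the largest changes of the list. Sgce, a sarcoglycan, had 53.4, 48.4 and 38.8 FPKM in transplant cells, against 16.3, 4.75 and 9.998 FPKM in embryo cells (2.2 ± 0.34, adjusted p = 0.000260), and the matrix proteoglycan decorin, Dcn, was also higher (2.07 ± 0.20, adjusted p = 7.68e-06).

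The oncofetal regulators of growth and RNA were lower wherever they were called. Of 8 tested members 6 were lower and none higher, with a median change of -2.45, and 5 were lower without embryo replicate 2. A gene can pass the filter through the embryo libraries alone, which bears on the size of such medians. With no filter on low values 8 of 11 were lower and none higher, with a median of -1.01. Igf2bp1, which binds and stabilises fetal mRNAs, had 0.0972, 0.465 and 0.0845 FPKM in transplant cells, against 15.2, 20.7 and 23.7 FPKM in embryo cells (-4.09 ± 0.26, adjusted p = 4.65e-07). Its paralogs Igf2bp3 (-3.92 ± 0.34) and Igf2bp2 (-2.81 ± 0.25) fell as well. Hmga2, a chromatin protein of fetal progenitors, had 0.669, 2.21 and 0.230 FPKM in transplant cells, against 14.9, 18.2 and 41.8 FPKM in embryo cells (-3.65 ± 0.40, adjusted p = 1.89e-05), and Hmga1 was lower by -2.08 ± 0.44. Lin28b, the blocker of let-7 maturation, was listed at 0 in the 3 transplant libraries and had 0.827, 2.23 and 0.380 FPKM in embryo cells, too low to be tested. Of 15 pluripotency genes only Sox2 and Klf4 passed the filter. Klf4, which many differentiated cells also use, was higher (1.5 ± 0.23, adjusted p = 0.000252), and Sox2 was lower (-1.12 ± 0.34, adjusted p = 0.0176) at 0.116, 0 and 0 FPKM in transplant cells and 0.886, 1.32 and 1.63 FPKM in embryo cells, a call lost without embryo replicate 3 (0.0561). Pou5f1, the core pluripotency factor, was listed at 0 in all 6 libraries.

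Hox genes, which record position along the body, were lower in transplant cells in all 3 sections of the clusters. Of the tested members, 9 of 10 anterior, 6 of 8 central and 4 of 8 posterior genes were lower and none was higher, with medians of -1.55, -1.70 and -1.02. The calls without embryo replicate 2 numbered 9, 7 and 5. With no filter on low values 10 of 12, 8 of 11 and 6 of 16 were lower, with medians of -1.39, -1.50 and -0.91. Hoxc4 had 1.16, 0.233 and 0.304 FPKM in transplant cells, against 5.13, 6.16 and 9.52 FPKM in embryo cells (-2.35 ± 0.36, adjusted p = 0.000249). Hoxa2 (-1.98 ± 0.42), Hoxc5 (-2.04 ± 0.37), Hoxc6 (-2.04 ± 0.33) and Hoxc8 (-2.11 ± 0.26) had like changes. Hoxa10, a posterior gene of the limb, had 2.07, 1.58 and 0.769 FPKM in transplant cells, against 5.63, 8.64 and 6.31 FPKM in embryo cells (-1.69 ± 0.29, adjusted p = 0.000551), with Hoxc10 (-1.65 ± 0.34) and Hoxa9 (-1.51 ± 0.33) beside it. All are low-abundance transcripts here.

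Limb and head position factors moved in both directions. Of 16 tested members 5 (31.2%) were higher and 3 (18.8%) lower, beside 14.9% higher and 27.6% lower among all genes. The median of -0.23 turned to 0.07 under median-ratio and 0.02 under quantile scaling, and 5 were lower without embryo replicate 2. Meox1, a homeobox factor of the somite, had 18.9, 22.7 and 9.94 FPKM in transplant cells, against 2.11, 1.97 and 0.404 FPKM in embryo cells (2.88 ± 0.39, adjusted p = 0.000107). Tcf21, a factor of head muscle and of fibroblasts (2.22 ± 0.23), and Barx2 (2.05 ± 0.31) were also higher. Tbx15 had 7.27, 4.68 and 7.52 FPKM in transplant cells, against 21.1, 23.6 and 26.1 FPKM in embryo cells (-1.73 ± 0.27, adjusted p = 0.000318). En1 (-1.53 ± 0.36) and the forelimb factor Tbx5 (-1.17 ± 0.24) were the other lower genes.

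Signalling pathways showed mixed changes, to be read beside 14.9% higher and 27.6% lower calls among all genes. In the Notch pathway 7 of 22 members (31.8%) were higher and 5 (22.7%) lower, with 3 lower without embryo replicate 3. The Notch median of -0.04 turned positive under median-ratio (0.21) and quantile (0.14) scaling. Beside the higher target Heyl, the targets Hes5 (-2.21 ± 0.53, -1.37 without embryo replicate 2) and Nrarp (-1.82 ± 0.40) and the glycosyltransferase Lfng (-2.14 ± 0.45) were lower. Among FGF receptors, Fgfr1 had 79.4, 78.7 and 89.1 FPKM in transplant cells, against 35.7, 27.3 and 38.1 FPKM in embryo cells (1.28 ± 0.16, adjusted p = 4.95e-05). Fgfr4 (1.02 ± 0.26) and the feedback inhibitor Spry1 (0.95 ± 0.20), which satellite cells need to return to rest, were higher, and Fgfr2 was lower (-2.49 ± 0.30). In all 4 of 14 tested FGF genes (28.6%) were higher and 3 (21.4%) lower, with a median of 0.25. Of these genes, 1 was lower without embryo replicate 3 or without transplant replicate 2. Under median-ratio scaling 7 were higher and 2 lower, and under quantile scaling 6 and 3.

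In the BMP and TGF-β list 12 of 25 members (48%) were higher and 8 (32%) lower, beside 14.9% and 27.6% of all genes. The median of 0.18 was -0.13 without transplant replicate 1, and 5 members were lower without transplant replicate 3. Under median-ratio scaling 4 were lower with a median of 0.47, and under quantile scaling 5. Tgfb1, the ligand, had 29.2, 36.5 and 21.8 FPKM in transplant cells, against 2.69, 3.17 and 3.47 FPKM in embryo cells (2.85 ± 0.24, adjusted p = 3.29e-06). Tgfb3 (2.17 ± 0.22) and the latent TGF-β binding protein Ltbp4 (3.41 ± 0.15) moved with it. Bmp7 was listed at 0 in the 3 transplant libraries and had 10.5, 5.82 and 10.9 FPKM in embryo cells (-3.29 ± 0.30, adjusted p = 5.43e-06). The receptor Acvr2b (-1.59 ± 0.34) and the BMP antagonist Grem1 (-1.21 ± 0.31) were lower as well.

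Wnt targets and modulators were mostly lower, 14 of 25 tested against 2 higher, with a median of -1.10. Sfrp2, a secreted Wnt modulator of fetal muscle, had 17.9, 17.8 and 6.22 FPKM in transplant cells, against 158, 141 and 201 FPKM in embryo cells (-3.60 ± 0.41, adjusted p = 2.73e-05). Nkd1, a target and inhibitor (-2.22 ± 0.29), and the agonist Rspo1 (-2.08 ± 0.40) fell too, while the modulators Sfrp4 (2.68 ± 0.22) and Dkk3 (2.29 ± 0.28) rose. Under median-ratio scaling 10 were lower. Among writers and readers of DNA methylation and Polycomb marks 10 of 18 were lower and 2 higher, with a median of -0.66. Dnmt1, the maintenance methyltransferase, had 3.56, 4.13 and 3.99 FPKM in transplant cells, against 33.8, 35.5 and 40.5 FPKM in embryo cells (-2.94 ± 0.18, adjusted p = 4.04e-07). Ezh2, the Polycomb methyltransferase of dividing cells, had 3.54, 4.83 and 4.89 FPKM in transplant cells, against 19.6, 21.9 and 22.3 FPKM in embryo cells (-2.05 ± 0.19, adjusted p = 6.04e-06). Its paralog Ezh1, which is found in resting cells, had 6.63, 6.43 and 7.24 FPKM in transplant cells, against 1.35, 1.08 and 1.90 FPKM in embryo cells (1.68 ± 0.28, adjusted p = 0.000482). Ezh1 was above Ezh2 in every transplant library and below it in every embryo library. The chromobox proteins parted in the same way, with Cbx7 higher (2.29 ± 0.29) and Cbx2 lower (-2.06 ± 0.27).

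Matrix genes were mostly higher in transplant cells. Of 27 tested collagens 13 were higher and 5 lower, with a median of 0.62 (0.35 without embryo replicate 2). Col15a1, a collagen of the muscle basement membrane zone, had 244, 200.0 and 227 FPKM in transplant cells, against 13.8, 17.7 and 8.18 FPKM in embryo cells (4.04 ± 0.22, adjusted p = 1.6e-07), and Col8a1 was also higher (3.68 ± 0.29). The lower members were led by the cartilage collagens. Col2a1 had 0.140, 0.400 and 0.473 FPKM in transplant cells, against 32.1, 44.8 and 58.3 FPKM in embryo cells (-5.08 ± 0.34, adjusted p = 6.1e-07), followed by Col9a1 (-2.73 ± 0.29) and the membrane collagen Col23a1 (-1.97 ± 0.33). Of 22 laminins and basement membrane linkers 11 were higher and 3 lower, with a median of 0.49, and 5 were lower without transplant replicate 1. Lama2, the laminin chain of muscle fibres, had 76.4, 80.2 and 81.5 FPKM in transplant cells, against 11.1, 16.4 and 10.7 FPKM in embryo cells (2.57 ± 0.17, adjusted p = 5.05e-07). Dystroglycan (Dag1), which ties laminin to the cell, had 359.9, 354 and 441 FPKM in transplant cells, against 66.1, 77.7 and 43.6 FPKM in embryo cells (2.64 ± 0.22, adjusted p = 2.47e-06). Perlecan (Hspg2, 2.59 ± 0.14) and α-sarcoglycan (Sgca, 3.37 ± 0.35) were higher. Itga6, the laminin receptor of embryonic muscle progenitors, had 1.39, 2.50 and 2.41 FPKM in transplant cells, against 13.7, 17.5 and 15 FPKM in embryo cells (-2.42 ± 0.21, adjusted p = 4.5e-06), opposite to Itga7, and Nid2 was lower by -1.76 ± 0.21.

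Matricellular proteins were higher for 16 of 22 tested genes and lower for 2, with a median of 1.13, and 14 were higher and 3 lower without embryo replicate 2. Biglycan, Bgn, had 1526, 1569.7 and 1062 FPKM in transplant cells, against 99.8, 82.2 and 89.3 FPKM in embryo cells (3.91 ± 0.19, adjusted p = 9.02e-08). Osteopontin (Spp1, 3.93 ± 0.37), connective tissue growth factor (Ctgf, 3.77 ± 0.26) and tenascin X (Tnxb, 3.69 ± 0.31) were close to it in change. Fbn2, the fibrillin of the embryo, had 14.9, 10.1 and 5.69 FPKM in transplant cells, against 84.9, 78.6 and 88.6 FPKM in embryo cells (-3.01 ± 0.25, adjusted p = 3.13e-06). Fibroblast and tendon markers were also mostly higher, but the lists are not separate, with Thbs4 (5.81) in both the tendon and the matricellular list. Of 19 fibroblast markers 14 were higher and 2 lower, with a median of 1.75, their summed level was 5144 to 7519 FPKM in transplant libraries and 1975 to 2883 FPKM in embryo libraries, and none was at 0 in a whole group. Pi16, a marker of universal fibroblasts, had 119.8, 75.6 and 66.9 FPKM in transplant cells, against 3.16, 1.42 and 0.644 FPKM in embryo cells (5.07 ± 0.38, adjusted p = 1.37e-06), and Gsn (4.72 ± 0.21), Mfap5 (4.61 ± 0.48) and Ly6a, or Sca-1 (4.55 ± 0.35), were higher. Twist2, a factor of embryonic mesenchyme, had 2.03, 0 and 0.959 FPKM in transplant cells, against 47.5, 20.3 and 52.1 FPKM in embryo cells (-4.39 ± 0.55, adjusted p = 5.58e-05), and Osr1 was lower by -1.24 ± 0.25. All 10 tendon markers were tested and 8 were higher, with a median of 2.88 and summed levels of 1604 to 1845 FPKM in transplant libraries and 322 to 454 FPKM in embryo libraries. Tnmd, tenomodulin, had 87.8, 52.8 and 35.9 FPKM in transplant cells, against 7.42, 2.32 and 4.85 FPKM in embryo cells (3.36 ± 0.51, adjusted p = 0.000242), with Cilp2 (3.77 ± 0.30), Fmod (3.31 ± 0.31), Chodl (3.20 ± 0.28), Ptx4 (2.57 ± 0.41) and Kera (1.92 ± 0.32) beside it. The tendon regulators Scx (1.5, adjusted p = 0.0967, but 0.00223 without embryo replicate 2) and Mkx (0.76, adjusted p = 0.173, but 0.0178 without transplant replicate 2) did not pass the test. The part of these markers in the matrix results was not tested.

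**Figure D4:**
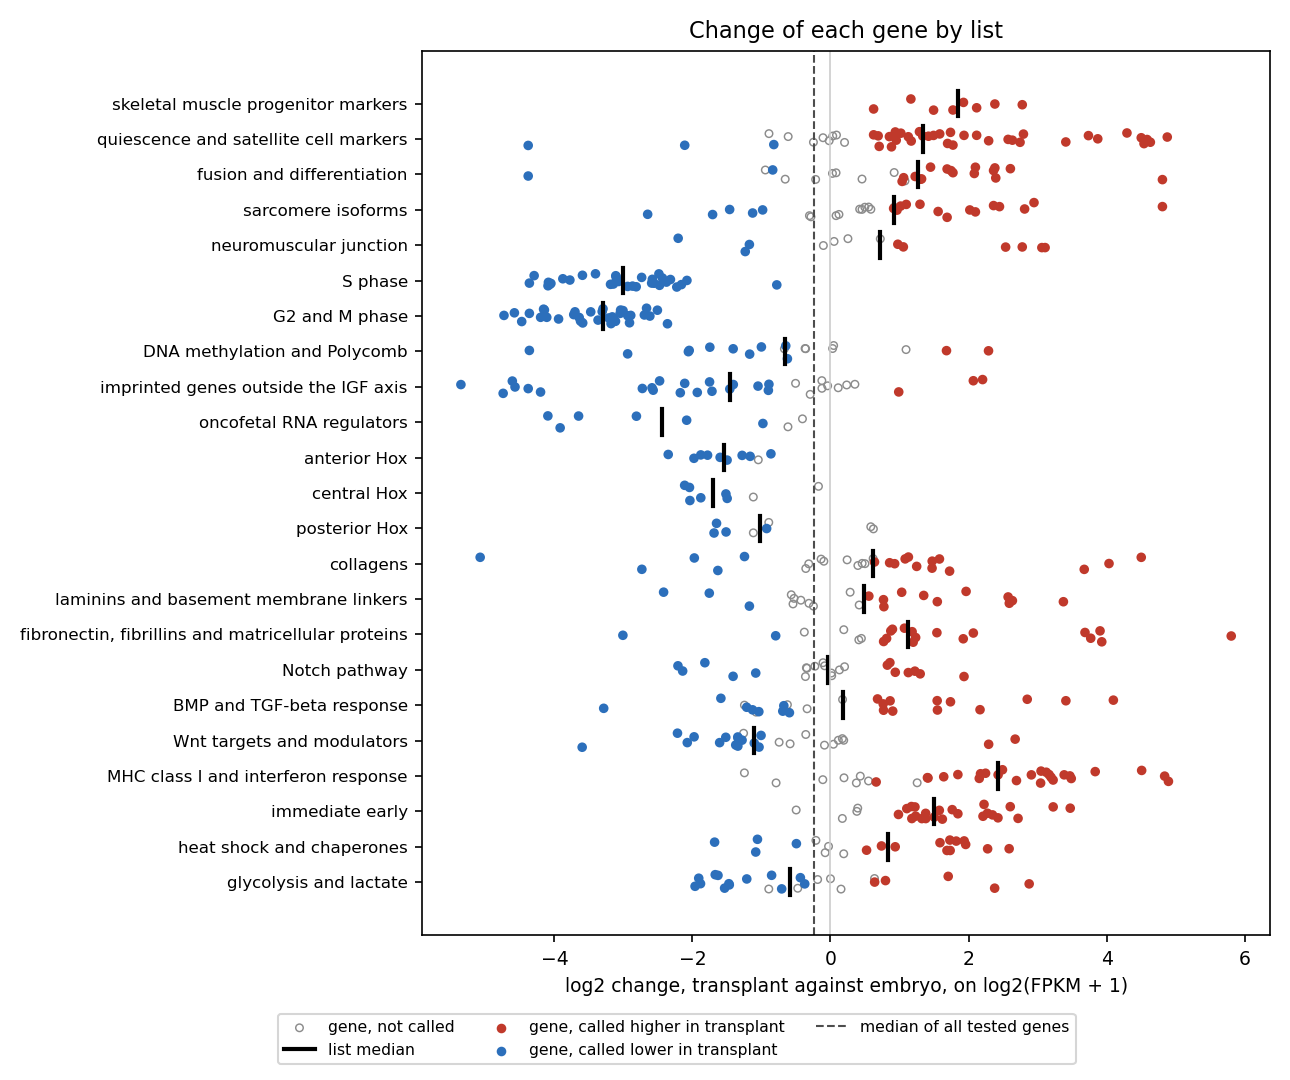
Log2 change (transplant minus embryo) of every tested gene of 23 lists (dots, coloured by call) with each list's median, and a dashed line at the median of all genes, -0.24. The medians run from -3.30 for G2 and M phase and -3.00 for S phase to 2.43 for the MHC class I and interferon list, and that of the Notch pathway (-0.04) is 0.21 under median-ratio scaling.

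Interferon-induced and MHC class I genes were mostly higher. Of 33 tested members 25 were higher and none lower, with a median of 2.43, and without embryo replicate 2 they were 24 and 2. H2-K1, a class I antigen-presenting chain, had 46.2, 48.8 and 46.2 FPKM in transplant cells, against 1.52, 0 and 0.667 FPKM in embryo cells (4.90 ± 0.28, adjusted p = 2.53e-07). H2-D1 had 69.7, 76.0 and 65.8 FPKM in transplant cells, against 0.667, 1.08 and 3.43 FPKM in embryo cells (4.84 ± 0.30, adjusted p = 3.51e-07). Isg15, the ubiquitin-like interferon product whose promoter is shown above, had 26.5, 29.3 and 15.8 FPKM in transplant cells, against 0, 0.191 and 0 FPKM in embryo cells (4.51 ± 0.32, adjusted p = 1.02e-06). Its regulators, the transcription factor Irf7 (3.84 ± 0.35) and the protease Usp18 (3.49 ± 0.29), were higher as well. Leukocyte markers, whose part in this was not tested, had 5 of 13 tested genes higher and none lower, or 3 higher without transplant replicate 2. Their summed level was 32.4 to 60.5 FPKM in transplant libraries and 7.88 to 37.5 FPKM in embryo libraries. Cd52 was at 0 in all 6 libraries, Tyrobp, C1qa and Aif1 were at 0 in the 3 embryo libraries, and the macrophage lysozyme Lyz2 had 15.1, 16.9 and 10.4 FPKM in transplant cells, against 0.228, 5.04 and 1.28 FPKM in embryo cells (2.53 ± 0.65, adjusted p = 0.00785). Cd74 (2.34 ± 0.48) and C1qa (2.18 ± 0.37) were higher too.

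Immediate early genes, which cells switch on within minutes of a stimulus or of tissue digestion, were mostly higher in transplant cells. Of 27 immediate early genes 23 were higher and none lower, with a median of 1.5, and the counts were the same without embryo replicate 2. Their summed level was 6744 to 7811 FPKM in transplant libraries and 1822 to 2622 FPKM in embryo libraries. Socs3, the feedback inhibitor of cytokine signalling, had 259, 202 and 257 FPKM in transplant cells, against 23.02, 20.8 and 17.9 FPKM in embryo cells (3.47 ± 0.20, adjusted p = 2.45e-07). Zfp36, which degrades short-lived mRNAs, had 1186, 839 and 1251 FPKM in transplant cells, against 135, 77.1 and 142 FPKM in embryo cells (3.23 ± 0.24, adjusted p = 1.34e-06). The AP-1 subunits Fosb (2.72 ± 0.23) and Junb (2.60 ± 0.18) and the factors Egr2 (2.43 ± 0.24) and Egr1 (1.58 ± 0.17) were higher. Heat shock genes were less uniform, with 12 of 20 higher and 4 lower, a median of 0.84, and 2 lower without transplant replicate 2 or under median-ratio scaling. Cryab, a small heat shock protein of muscle, had 55.4, 63.0 and 72.4 FPKM in transplant cells, against 11.5, 10.9 and 7.16 FPKM in embryo cells (2.59 ± 0.19, adjusted p = 1.32e-06), and its partners Bag3 (2.28 ± 0.15) and Hspb8 (1.94 ± 0.31) and the co-chaperone Dnajb1 (1.96 ± 0.20) rose with it. The mitochondrial chaperonin Hspd1 had 68.7, 71.1 and 88.1 FPKM in transplant cells, against 282, 286 and 179.9 FPKM in embryo cells (-1.68 ± 0.24, adjusted p = 0.000139), and the heat shock factor Hsf2 was lower (-1.08 ± 0.22).

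Most zinc handling genes other than the metallothioneins did not pass the test. Beside Mt1 and Mt2 only the zinc importer Slc39a14 was higher, with 19.4, 33.7 and 28.9 FPKM in transplant cells, against 3.98, 5.90 and 4.34 FPKM in embryo cells (2.28 ± 0.22, adjusted p = 7.68e-06). The importer Slc39a10 was lower, with 3.98, 4.51 and 2.81 FPKM in transplant cells, against 12.9, 19.6 and 19.1 FPKM in embryo cells (-1.93 ± 0.22, adjusted p = 2.64e-05). Mtf1, the zinc sensor, had 3.78, 2.2 and 2.13 FPKM in transplant cells and 3.01, 2.76 and 2.95 FPKM in embryo cells (-0.11 ± 0.29, adjusted p = 0.8). The exporter Slc30a1 (-0.03 ± 0.32, adjusted p = 0.950), also a known Mtf1 target, Slc30a4 (0.40 ± 0.21, adjusted p = 0.156), Slc39a8 (-0.95 ± 0.38, adjusted p = 0.0650) and Mt3 (0.86 ± 0.58, adjusted p = 0.258) did not pass the test. Slc30a4 passed it under median-ratio scaling (0.0199) and without transplant replicate 3 (0.0482), and Slc39a8 without embryo replicate 1 (0.027). Mt4 was listed at 0 in all libraries. The list of 9 tested genes had a median of 0.40, and Mt1 and Mt2 averaged 469 and 1017 FPKM in adult hindlimb cells.

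Among all tested genes 27.6% were lower and 14.9% higher, and genes of energy metabolism are to be read beside these shares. Of 24 glycolysis and lactate genes 13 (54.2%) were lower and 5 (20.8%) higher, with a median of -0.59. Without transplant replicate 1 or under median-ratio scaling 9 were lower. Eno1, enolase, had 35.9, 35.9 and 26.5 FPKM in transplant cells, against 129.8, 157 and 106 FPKM in embryo cells (-1.96 ± 0.20, adjusted p = 1.14e-05). Liver-type phosphofructokinase Pfkl (-1.91 ± 0.26) and the lactate exporter Slc16a3 (-1.88 ± 0.31) fell too. Hk2, the muscle hexokinase, had 28.5, 61.5 and 43.9 FPKM in transplant cells, against 7.89, 5.34 and 9.43 FPKM in embryo cells (2.38 ± 0.27, adjusted p = 2.4e-05), and Pdk4, which keeps pyruvate out of mitochondria, was higher (1.71 ± 0.27). Pfkp was at 11.7, 17.9 and 14.3 FPKM in transplant cells and at 0, 8.20 and 0 FPKM in embryo cells (2.88 ± 0.66, adjusted p = 0.00385). Of 83 nuclear genes of oxidative phosphorylation 48 (57.8%) were lower and 1 higher, with a median of -0.84, or 27 and 2 under median-ratio scaling. The higher one was Cox6a2, the subunit of striated muscle, with 2.73, 6.59 and 3.36 FPKM in transplant cells and listed at 0 in the 3 embryo libraries (2.32 ± 0.28, adjusted p = 4.45e-05). Atp5k, of ATP synthase, was lower (-1.87 ± 0.26, adjusted p = 0.000115). Heme, iron and lipid genes split evenly, 7 higher and 7 lower of 18, with a median of -0.21 that was 0.10 under median-ratio scaling and 0.01 without embryo replicate 3. Fabp5, a fatty acid-binding protein, had 17.7, 16.3 and 14.9 FPKM in transplant cells, against 226, 339 and 221 FPKM in embryo cells (-3.90 ± 0.30, adjusted p = 1.43e-06). The transferrin receptor Tfrc (-1.55 ± 0.25) was lower, and heme oxygenase Hmox1 (2.53 ± 0.25), Apoe (2.80 ± 0.24) and the desaturase Scd1 (1.96 ± 0.27) were higher.

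Beside the fibroblast, tendon and leukocyte lists given above, erythroid, neural and glial markers were mostly lower in transplant cells, and endothelial, epithelial and cartilage lists were less clearly parted. The muscle progenitor markers themselves summed to 394 to 538 FPKM in transplant libraries and 130.4 to 160.5 FPKM in embryo libraries, and all 8 were higher (7 without embryo replicate 1 or 3 or transplant replicate 2 or 3). Erythroid markers summed to 0.811 to 1.33 FPKM in transplant libraries and 387 to 2097 FPKM in embryo libraries, with 6 of 7 tested lower, or 5 without embryo replicate 2. With no filter on low values 6 of 12 were lower. Neural and glial markers summed to 4.29 to 12.6 FPKM in transplant libraries and 40.6 to 117 FPKM in embryo libraries. Of 11 tested 8 were lower, or 8 of 15 with no filter. Fabp7, of radial glia and Schwann precursors, had 0, 0 and 0.277 FPKM in transplant cells, against 13.2, 44.4 and 69.6 FPKM in embryo cells (-5.04 ± 0.49, adjusted p = 8.6e-06), and the neural crest factor Sox10 was lower (-1.65 ± 0.31). Endothelial and mural markers overlapped in their sums, 154 to 177 FPKM in transplant libraries and 158 to 247 FPKM in embryo libraries, yet 9 of 17 were lower, led by the pericyte channel subunits Kcnj8 (-2.56 ± 0.33) and Abcc9 (-2.41 ± 0.26).

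Epithelial markers summed to 0.728 to 11.2 FPKM in transplant libraries and 7.52 to 58.8 FPKM in embryo libraries, with 4 of 14 tested (28.6%) lower, close to the 27.6% of all genes, or 2 without embryo replicate 2 or 3 or transplant replicate 1 or 3. Of 20 such markers, 13 were at 0 in the 3 transplant libraries, among them Epcam, Afp and Alb, and 6 in the 3 embryo libraries. Cartilage and bone markers overlapped in their sums, 105 to 121 FPKM in transplant libraries and 83.1 to 132 FPKM in embryo libraries. Of 12 tested, 3 (25%) were higher and 5 (41.7%) lower, beside 14.9% and 27.6% of all genes. Called or not, 3 changes were positive and 9 negative, with a median of -0.84. The lowest was that of Col2a1 (-5.08). Comp, a matrix protein of cartilage and tendon (3.48 ± 0.43), Runx2 (1.34 ± 0.35) and Sox9 were the higher ones. Sox9, the cartilage and tendon progenitor factor, had 39.1, 45.8 and 48.9 FPKM in transplant cells, against 9.52, 6.94 and 14.7 FPKM in embryo cells (2.05 ± 0.23, adjusted p = 2.28e-05), while its cartilage target Col2a1 was near 0 in the same libraries. Which share of any change comes from other cells in the sort was not tested.

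**Figure D5:**
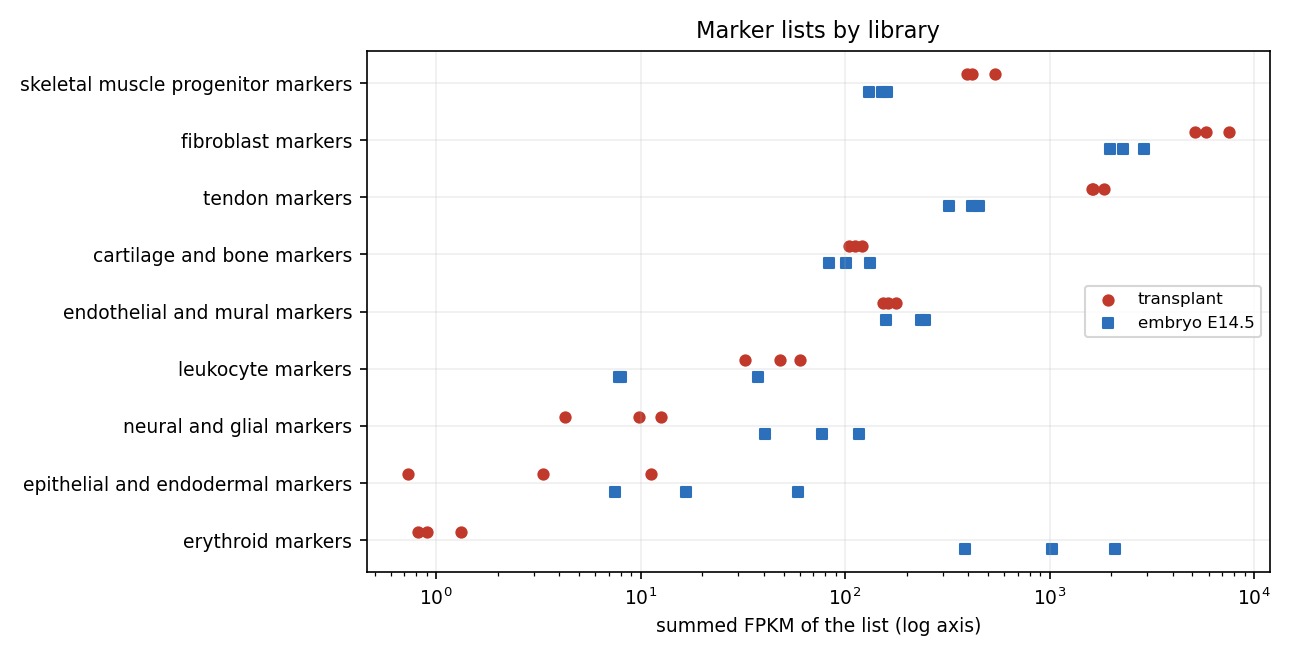
Summed FPKM of each cell type marker list in every library, on a log axis, transplant and embryo libraries in different colours. Fibroblast and tendon sums are higher in every transplant library (from 5144 and 1604 FPKM), erythroid, neural and glial sums are higher in every embryo library (from 387 and 40.6 FPKM), and cartilage and bone sums overlap.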

How the data were processed

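RNA of α7-integrin+ VCAM+ cells was sequenced in 12 libraries, with 3 transplant and 3 embryo libraries compared here. Per the labels' protocols, the library kit was SMARTer Stranded Total RNA-seq Pico. The build mm10 and the tools Partek, Cufflinks 2.2.1.0, TopHat 0.7 and CASAVA 1.8.2 stand in the submitters' processing notes, with no roles. Which annotation was used, and whether counting used strand, is not given in the sources used here. Per the file headers, values are in FPKM, by symbol and library, in 1 table that the authors deposited. Without read counts the depth is unknown and no counting interval can be had, and a value of 0 may be an estimate that failed.

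From this table, values of 240 repeated symbols were summed (23746 entries, 23284 symbols), and a gene was kept where 3 or more libraries had 1 FPKM or more. limma 3.58.1 (R 4.3.3) tested log2(FPKM + 1), with 1 model over the 4 groups (8 residual degrees of freedom), an intensity trend and Benjamini-Hochberg adjustment over 12699 genes. The steps were tested on simulated data with normal noise around each gene's mean and known changes added. The simulation held no shift of scale between libraries and no outlying library, so it says nothing of their effect. The members and the gene lists were chosen with earlier results of these data known, and lists are described by counts and medians with no test. Some genes stand in more than 1 list, so lists that moved alike are not independent.

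Genes were named by a rule. It takes the main regulators and sort genes, the 10 higher and 10 lower genes of largest change, up to 5 called members of each list by size of change and up to 3 in the direction with fewer calls, members of short lists, and all metallothionein, sarcomere and IGF axis genes. Predicted, small RNA, mitochondrial, ribosomal protein and replication histone genes were left out of the largest changes, and 3 genes that the rule takes are not reported here. Alternatives were the pseudocount, the filter, median-ratio and quantile scaling, library weights, only the 2 groups, a replicate block, a minimum change, and leaving out each library. Deviations of same-numbered libraries of the 2 groups were hardly correlated (0.0455, -0.0165 and 0.0312), and the numbers were not used as pairs. Libraries of unlike number gave -0.0578 to 0.0211. With 3 libraries per group these values cannot settle whether same-numbered libraries shared a batch. Promoters are from RefSeq on GRCm38.p6, where 27 of 32 S phase, 30 of 34 G2 and M phase, 29 of 33 interferon and 8 of 9 zinc list genes were found, and gene coordinates are from an mm10 annotation.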

Additional observations from a re-analysis of the deposited data

How the results depend on the processing

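Of 216 called genes named in the text, 206 kept their call and direction under every alternative other than a minimum log2 change of 1, and none reversed. The rule named genes largely by size of change, which favours calls that hold, so this share does not describe called genes in general. With the spread estimated from only the 2 groups compared, 7 named calls were lost, those of Myog, Cdkn1b, Igf2, Myh8, Myl4, Tnni1 and Tnnc1. These 7 calls thus depend on having the teratoma and adult libraries in the fit. Leaving those libraries out changes the estimated spread and also lowers the residual degrees of freedom. Which of these lost the calls was not tested. The counts of calls kept within 1.5 times of 1889 higher and 3505 lower under all alternatives but 1, a minimum change of 1, which left 2277 lower. Leaving out 1 library gave 1580 to 1914 higher and 2900 to 3422 lower. Higher calls made 35% of all calls, but 51.3% under median-ratio and 46.6% under quantile scaling (2380 higher, 2728 lower), and 44.5% when scaled to the sum without small and ribosomal RNA, an alternative chosen after seeing the data. Cytosolic ribosomal protein genes had 56 of 81 lower calls and 28 under median-ratio scaling. The fit with replicate number as a block gave 1829 higher and 3361 lower. Of the calls named, it lost that of Myog. Whether the numbers pair the libraries is not known, and the call of Myog was also lost under the other alternatives given above.

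Of 41 lists with at least 5 tested genes, leaving out a list of Hprt, Xist and 4 Y-linked genes, 5 had medians that changed sign under an alternative that kept 5 genes, and the cause was not tested. Counted apart from sign changes, 33 of the 41 had a median that moved by 1 SD or more under some alternative. That SD is the spread of the list's median level among the libraries of a group, taken from the group where it is larger. The median of the cartilage and bone markers (-0.84) was 0.96 with a mean of at least 5 FPKM, which kept 4 of 12 genes, and no Hox gene passed that filter. The list of Hprt, Xist and Y-linked genes (0.46 over 6 genes) was at -0.55 without embryo replicate 2 and at -0.08 with library weights. The myogenic regulators were at -0.02 without embryo replicate 1. The position factors were at 0.07 under median-ratio and 0.02 under quantile scaling. The Notch pathway was at 0.21 and 0.14 under these, 0.17 with a mean of at least 5 FPKM, 0.03 with library weights, 0.03 without embryo replicate 3 and 0.05 without transplant replicate 2. The BMP and TGF-β list was at -0.13 without transplant replicate 1 and at 0.40 without transplant replicate 3. Heme, iron and lipid genes were at 0.10 under median-ratio scaling and 0.01 without embryo replicate 3, against -0.46 without embryo replicate 1.

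Genes near no change also turned, none of them called. Nfia was at 0.29 under median-ratio, 0.20 under quantile and 0.17 under the added scaling, 0.04 with library weights, 0.01 without embryo replicate 2 or 3, 0.05 without transplant replicate 2 and -0.08 without embryo replicate 1. Insr was at 0.24, 0.20 and 0.14 under these scalings, 0.03 and 0.16 without embryo replicate 1 or 3, 0.05 without transplant replicate 1 and -0.25 without embryo replicate 2. Mtf1 was at 0.13, 0.08 and 0.04 under the scalings, 0.00 without transplant replicate 3 and -0.30 without transplant replicate 1, and Slc30a1 at 0.25, 0.25 and 0.14 under the scalings, 0.26 without embryo replicate 3, 0.20 without transplant replicate 2 and -0.25 without embryo replicate 2. Median-ratio scaling put Tnnt1 at 0.01 (quantile 0.00) and Tpm3 at 0.02. Pecam1 was at 0.22 with library weights and between -0.87 and 0.38 without embryo replicate 1 or 2, Cdkn2c at 0.19 with a pseudocount of 0.1 and between -1.19 and 0.13 without embryo replicate 3 or 1, and Cdkn2d between -0.12 and 0.78 without transplant replicate 1 or 2. Myh3 was at -0.03 without embryo replicate 1 and -0.11 without transplant replicate 3, and Myom1 at -0.04 without embryo replicate 2 and -0.06 without transplant replicate 3. With FPKM the depth behind a value is unknown, so a gene listed at 0 cannot be told from one below detection.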

Other observations

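Genes of the cytosolic ribosome, the machine that makes protein, were lower or not called. Of 81 tested genes 56 were lower and none higher in transplant cells, with a median change of -0.63, though under median-ratio scaling 28 were lower with a median of -0.30. Rps26 had 468, 569.8 and 543 FPKM in transplant cells, against 1145, 1514 and 1179 FPKM in embryo cells (-1.27 ± 0.17, adjusted p = 0.000108 by limma). Rps13 had 135, 119 and 135 FPKM in transplant cells, against 309, 293 and 287 FPKM in embryo cells (-1.19 ± 0.19, adjusted p = 0.000427 by limma).

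A few genes were singled out after their values were seen, for values at or near 0 in 1 of the 2 groups. Smu1, a splicing factor, was listed at 0 in the 3 transplant libraries and at 24.2, 29.7 and 24.98 FPKM in the embryo libraries (-4.76 ± 0.20, adjusted p = 2.74e-08 by limma), while teratoma and adult cells averaged 18.2 and 18.4 FPKM. It was the 1 gene listed at 0 in all transplant libraries and at 5 FPKM or more in the other 9 libraries. Mmp19, a matrix metalloproteinase, was the 1 such gene for the embryo libraries. Pold2, a subunit of the replicative DNA polymerase, was listed at 0 in all transplant and all adult libraries and at 30.5, 35.1 and 23.7 FPKM in the embryo libraries (-4.93 ± 0.21, adjusted p = 2.48e-08 by limma). Hprt, the purine salvage enzyme, had 2.02, 0.323 and 0.152 FPKM in transplant cells, against 23.4, 43.8 and 28.9 FPKM in embryo cells (-4.26 ± 0.38, adjusted p = 4.62e-06 by limma). Whether such zeros come from the cells or from the estimation of the table was not tested.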
